A study of Mus musculus with 2 samples.

Results

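Hox genes encode homeodomain transcription factors that stand in 4 chromosomal clusters, Hoxa to Hoxd, and genes with the same paralogue number in different clusters descend from one ancestor. Low paralogue numbers are used toward the head and high numbers toward the tail of the body, in the order in which the genes lie along the cluster. In the developing lung, Hox genes are known mainly from the mesenchyme: mice without Hoxa5 have defects of the trachea and lung, and the Hox5 paralogues act together in lung branching. The 37 genes described here were found by symbol, as Hox with a cluster letter from a to d and a number from 1 to 13, among 19938 genes that the array's platform annotation ties to a probe set with a single symbol. The members comprised 10 Hoxa genes, 9 Hoxb genes, 9 Hoxc genes and 9 Hoxd genes, and each was read by 1 probe set.

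The study compared lungs of wild type mouse embryos with lungs labelled Etv4;5 knockout, both at stage E13.5, when the airways are branching. Etv4 and Etv5 are ETS transcription factors of the distal lung epithelium that respond to FGF signalling. RNA from 3 samples of a group was combined in equal parts and hybridised to a single Affymetrix array, which leaves 2 arrays without replication. No error can be given and no test could be run, and every difference below sets one pool against the other. The labels abbreviate the knockout as CKO in a title and as DKO in a description, and they name no Cre line, no deleted exon and no strain. Values were taken as log2 from their range, and a difference is always knockout minus wild type. The number of arrays thus limits the precision of every value.

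Both arrays carried the defining genes of embryonic lung. Nkx2-1, the lung epithelial identity factor, stood at 10.58 in wild type and 10.70 in knockout. Tbx4, a T-box factor of lung mesenchyme, stood at 11.70 and 11.68. Of the targeted genes, Etv4 stood at 7.59 and 6.96, a difference of -0.63. The 2 probe sets of Etv5 stood at 11.41 and 11.17 (-0.24) and at 11.51 and 11.28 (-0.23). Etv5 signal was thus lower in the knockout pool by less than 1.2-fold (0.26 on the log2 scale) and stayed bright on both arrays. Both Etv4 values lay below the median of all probe sets on their arrays (7.60 in wild type and 7.58 in knockout). Xist, which is expressed from the inactive X chromosome of female cells, differed by -6.60, so the sex makeup of the pools differed along with the genotype. Its part in the Hox values was not tested. The Hoxb cluster lies on chromosome 11 together with Etv4, with 100 measured genes between Etv4 and the nearest measured Hoxb gene.

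Hox signal above the array median came from the lower paralogue numbers of 2 clusters. Here the word measured is kept for genes whose brighter value reached the median of all probe sets on that array, 7.60 in wild type and 7.58 in knockout. By this rule 12 of 37 Hox genes were measured, beside 11045 of all 19938 genes. All 12 belonged to the Hoxa and Hoxb clusters, with paralogue numbers from 1 to 7. Among paralogues 1 to 4, 7 of 11 genes were measured, among paralogues 5 to 8, 5 of 10, and among paralogues 9 to 13, 0 of 16. This restriction depends on the limit: at the 25th percentile 26 Hox genes counted, beside 15806 of all 19938 genes. Among the 26 were 11 of 18 Hoxc and Hoxd genes and 8 of the 16 with numbers 9 to 13. Probe sets differ in how strongly they respond to a given amount of RNA, so a value places a gene against the median of its array and gives no order of abundance among Hox genes.

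**Figure D1:**
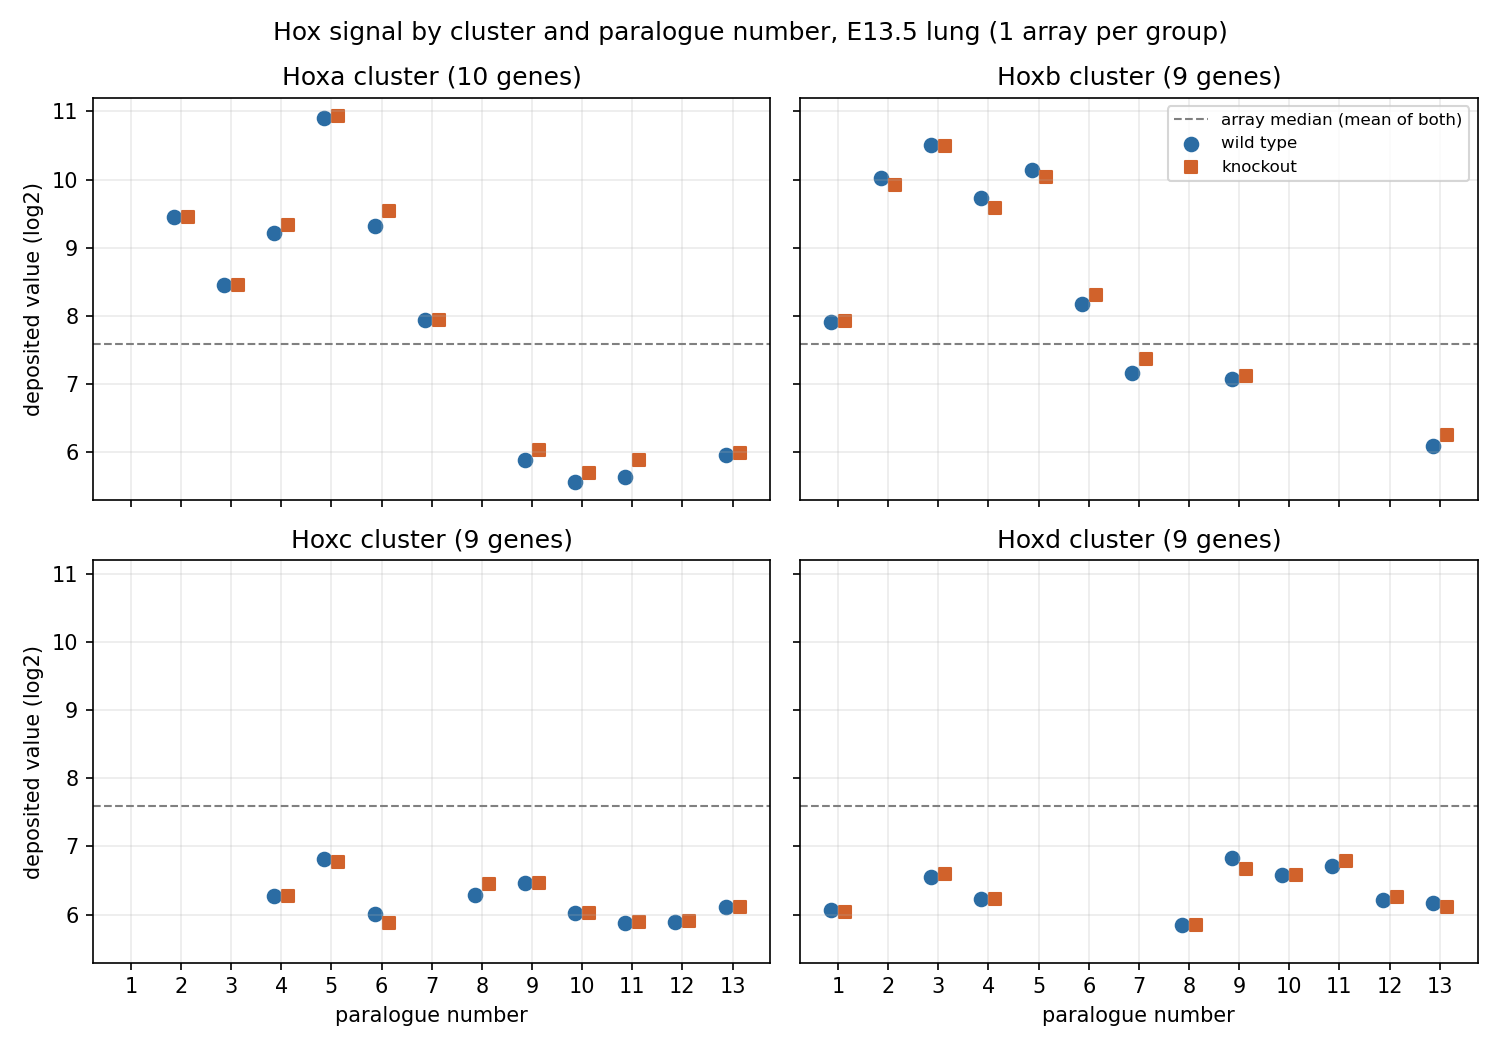
Deposited value (log2) of each Hox gene against its paralogue number, 1 panel per cluster, with circles for the wild type array, squares for the knockout array and a dashed line at the mean of both array medians. Hoxa genes up to number 7 and Hoxb genes up to number 6 lie above the line on both arrays, and all 18 Hoxc and Hoxd genes lie below it.

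Promoter sequences were read for the genes on either side of this step, because within a cluster the neighbours Hoxa7 and Hoxa9 fell on opposite sides of the array median, and among the paralogues of number 4 the Hoxb gene was above it while the Hoxc and Hoxd genes were below. The 250 bases before the RefSeq start are given for Hoxa5 (chr6:52204588-52204837, minus strand), Hoxa7 (chr6:52218574-52218823, minus strand), Hoxa9 (chr6:52227371-52227620, minus strand), Hoxb4 (chr11:96318017-96318266, plus strand), Hoxc4 (chr15:103034145-103034394, plus strand) and Hoxd4 (chr2:74721728-74721977, plus strand), all in GRCm38.p6 and read 5′ to 3′ on the gene's strand. Capitals mark matches to the motifs searched next, and a stretch without capitals held none of them.
Hoxa5: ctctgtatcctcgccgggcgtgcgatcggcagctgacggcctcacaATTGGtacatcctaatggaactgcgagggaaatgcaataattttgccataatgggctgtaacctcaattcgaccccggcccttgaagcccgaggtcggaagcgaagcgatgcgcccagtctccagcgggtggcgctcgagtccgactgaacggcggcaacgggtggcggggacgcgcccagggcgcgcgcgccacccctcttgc
Hoxa7: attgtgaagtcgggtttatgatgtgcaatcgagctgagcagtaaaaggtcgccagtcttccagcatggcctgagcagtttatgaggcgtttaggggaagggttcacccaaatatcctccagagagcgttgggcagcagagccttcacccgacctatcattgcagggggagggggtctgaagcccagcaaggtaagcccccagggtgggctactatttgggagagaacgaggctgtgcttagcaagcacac
Hoxa9: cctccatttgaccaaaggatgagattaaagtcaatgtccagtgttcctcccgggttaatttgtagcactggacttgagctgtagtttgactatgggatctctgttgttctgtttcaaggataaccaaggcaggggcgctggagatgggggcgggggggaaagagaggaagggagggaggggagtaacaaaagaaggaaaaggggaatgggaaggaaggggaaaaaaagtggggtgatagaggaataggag
Hoxb4: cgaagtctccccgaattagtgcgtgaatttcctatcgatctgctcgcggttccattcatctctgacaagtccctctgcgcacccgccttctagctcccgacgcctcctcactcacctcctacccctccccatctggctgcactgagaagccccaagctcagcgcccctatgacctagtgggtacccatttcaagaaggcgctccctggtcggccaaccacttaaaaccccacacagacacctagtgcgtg
Hoxc4: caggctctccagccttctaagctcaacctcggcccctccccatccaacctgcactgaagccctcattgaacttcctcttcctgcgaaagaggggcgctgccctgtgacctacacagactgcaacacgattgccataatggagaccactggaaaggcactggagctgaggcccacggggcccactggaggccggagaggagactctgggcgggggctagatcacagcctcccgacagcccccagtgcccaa
Hoxd4: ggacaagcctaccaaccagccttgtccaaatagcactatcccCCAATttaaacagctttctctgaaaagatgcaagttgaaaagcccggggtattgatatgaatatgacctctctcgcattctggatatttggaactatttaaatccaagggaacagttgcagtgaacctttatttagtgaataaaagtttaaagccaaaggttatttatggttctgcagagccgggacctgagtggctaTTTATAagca

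These stretches differed widely in CpG content, a property of Hox promoters that is tied in general to Polycomb regulation. The Hoxa5 stretch held 28 CpG dinucleotides, Hoxa7 held 7 and Hoxa9 held 3, and among the number 4 paralogues Hoxb4 held 14, Hoxc4 held 8 and Hoxd4 held 3. RefSeq promoters were matched for 21 of the 37 members, with 23 promoters in all. Their median GC content was 59.2% and their median CpG count 13, beside 52.4% and 6 over 32817 promoters of the same length. The 7 promoters of measured Hox genes had a median of 14 CpG and the 16 of the others a median of 12.5, with ranges of 6 to 28 and 2 to 35 that overlap.

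Motifs were searched on both strands. The CCAAT box was found in 13 of 23 Hox promoters, against 33.8% of all promoters, in 4 of the 7 belonging to measured genes and 9 of the 16 others. The letters CCGGAA, one form of the site bound by ETS factors, were found in 1 of 23, at Hoxa10, against 12.0% of all promoters. Shorter or other forms of an ETS site were not searched, so this count does not give how many promoters hold one. The TATA box, written TATAAA, was found in 3 of 23 (12.4% of all promoters). The homeodomain core TAATTA was found in 2 of 23, both of them at Hoxd11 (4.85% of all promoters), and the joint Pbx and Hox motif TGATNNAT in 3 of 23 (7.69% of all promoters). A match is a match of letters only.

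In the Hoxa cluster all 6 measured members lay between paralogues 2 and 7. Hoxa5, the member with the best known lung phenotype, stood at 10.90 in wild type and 10.93 in knockout, at the 91.8th and 92.2nd percentile of its arrays. Hoxa2 stood at 9.45 and Hoxa3, a gene known for pharyngeal organs, at 8.45, with exactly equal values on both arrays. Of all measured genes 27.3% had such equal values, for which the sources used here give no reason. An equal value is therefore not read here as unchanged expression. Between the pools Hoxa5 differed by 0.03.

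Hoxa4, which like Hoxa5 patterns the neck and upper thorax, stood at 9.21 and 9.33. Hoxa6 stood at 9.32 and 9.54. Hoxa7, the last Hoxa gene above the array median, stood at 7.94 on both arrays. Hoxa6 thus had the largest difference of any measured Hox gene, 0.22, and Hoxa4 differed by 0.13.

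Past Hoxa7, all 4 remaining members lay below the 25th percentile of both arrays (6.13 and 6.15). Hoxa9, a gene of lower thoracic and lumbar patterning and of blood stem cells, stood at 5.89 and 6.04. Hoxa10 stood at 5.56 and 5.70, Hoxa11 at 5.64 and 5.89, and Hoxa13 at 5.95 and 5.98. Hoxa10 and Hoxa11 are known for the reproductive tract and limb, and Hoxa13 for the limb tip and hindgut. Of all Hox genes Hoxa11 showed the largest difference, 0.25 or 1.19-fold, so the largest size in the family rests on dim values.

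In the Hoxb cluster the 6 measured members were Hoxb1 to Hoxb6. Hoxb3 stood at 10.51 in wild type and 10.49 in knockout, Hoxb5 at 10.14 and 10.04, and Hoxb2 at 10.02 and 9.92. Hoxb4 stood at 9.73 and 9.58. Hoxb5 is the other Hox5 gene with a known part in lung branching, and Hoxb2 to Hoxb4 are best known from the hindbrain and neck. These 4 genes were all lower in the knockout pool, by 0.02 to 0.15 on the log2 scale, where 47.0% of all measured genes were lower. The differences were -0.02 for Hoxb3, -0.10 for Hoxb2 and Hoxb5 and -0.15 for Hoxb4. The sign of Hoxb3 turned under quantile normalization (0.0048) and loess (0.0005).

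Hoxb1, a hindbrain gene, lay just inside the limit at 7.90 and 7.92, and Hoxb6 stood at 8.17 and 8.30. Just outside it lay Hoxb7 at 7.17 and 7.36. Hoxb9 stood at 7.08 and 7.12 and Hoxb13, a gene of the tail and prostate, at 6.09 and 6.25. All 5 of these flanking Hoxb genes were higher in the knockout pool, by 0.01 for Hoxb1, 0.13 for Hoxb6, 0.20 for Hoxb7, 0.04 for Hoxb9 and 0.16 for Hoxb13.

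The Hoxc and Hoxd clusters lay below the array median throughout, between the 20.4th and 37.5th percentile in wild type and between the 20.4th and 36.3rd in knockout. Hoxc5, the remaining Hox5 gene, stood at 6.81 in wild type and 6.78 in knockout. Hoxc4 stood at 6.27 on both arrays, Hoxc6 at 6.01 and 5.87, and Hoxc8, a thoracic gene, at 6.29 and 6.44. Below them in the body axis, Hoxc9 stood at 6.46, Hoxc10 at 6.02 and Hoxc13, a gene of hair and nail, at 6.11, each equal on both arrays. Hoxc11 stood at 5.88 and 5.88 with a difference of 0.0018, and Hoxc12 at 5.89 and 5.91. All 9 Hoxc genes were thus dim in both pools.

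Hoxd genes are known above all from the limb, the genital tubercle and the gut. Hoxd1 stood at 6.06 in wild type and 6.04 in knockout, Hoxd3 at 6.56 and 6.60, Hoxd4 at 6.23 on both arrays and Hoxd8 at 5.85 and 5.84. Of the limb genes, Hoxd9 stood at 6.83 and 6.66, Hoxd10 at 6.57 on both arrays, Hoxd11 at 6.72 and 6.78, Hoxd12 at 6.21 and 6.26, and Hoxd13 at 6.17 and 6.11. The largest difference in these 2 clusters was -0.17 at Hoxd9, followed by 0.15 at Hoxc8 and -0.14 at Hoxc6. A value below the array median does not show that a gene was absent, and no detection call was used here.

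The knockout and wild type pools differed little in Hox genes. Of the 12 measured members, 5 were higher in knockout by any amount, 4 lower and 3 exactly equal, where 25.7% of 11045 measured genes were higher, 47.0% lower and 27.3% equal. Their median difference was 0.00, as over all measured genes. At least 1.2-fold (0.26 on the log2 scale) higher were 0 of 12, against 1.39% of measured genes, and at least 1.2-fold lower were 0 of 12, against 1.53%. With so few members a count of 0 is what these background shares alone would give, so it does not set Hox genes apart. Without the level limit 0 of 37 members passed 1.2-fold as well, where 440 of 19938 genes were higher and 266 lower by that much. With equal array medians the dim gene Hoxa11 passed it (0.27).

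**Figure D2:**
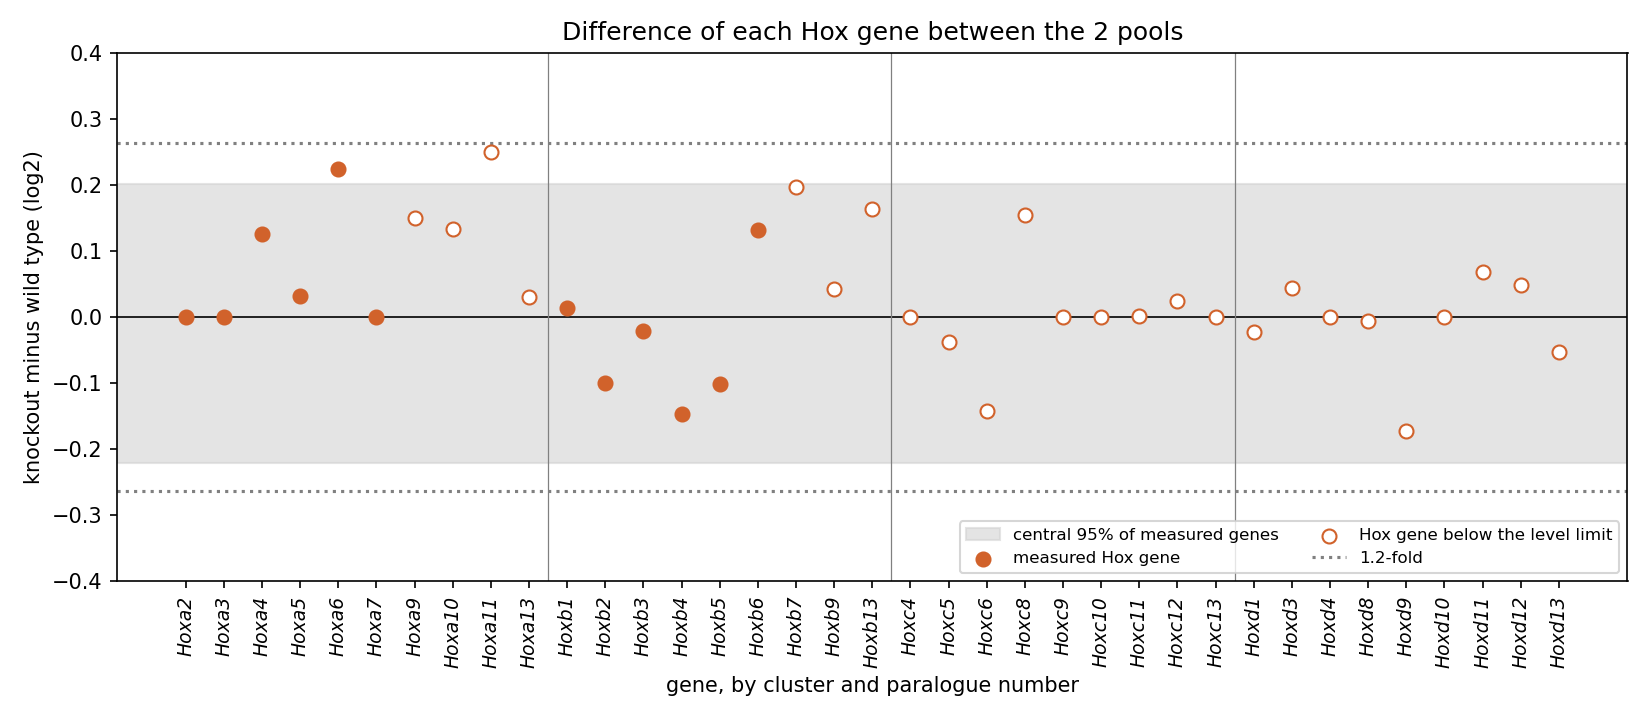
Difference (knockout minus wild type, log2) of each Hox gene in order of cluster and paralogue number, with filled points for measured genes and open points for genes below the level limit. The grey band spans the central 95% of measured genes, from -0.22 to 0.20, and the dotted lines mark 1.2-fold. Hoxa6 and Hoxa11 lie just above the band and no gene reaches 1.2-fold.

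The clusters differed in the sign of these small values. Of 10 Hoxa genes 7 were higher in knockout and 0 lower, with Hoxa2, Hoxa3 and Hoxa7 equal. Among the 6 measured Hoxa genes 3 were higher and 3 equal. The others that were higher, Hoxa9, Hoxa10, Hoxa11 and Hoxa13, lay below the 25th percentile of both arrays. With a floor at that percentile each of them differed by 0.0186. Of 9 Hoxb genes 5 were higher and 4 lower, and in the other 2 clusters 6 of 18 were higher and 6 lower. Over all 19938 genes without a level limit, 33.4% were higher and 33.2% lower. Among measured members the median was 0.016 in Hoxa and -0.06 in Hoxb. With equal array medians or quantile normalization all 6 measured Hoxa genes were higher, and with loess 5 were higher and 1 lower. The measured Hoxb genes went from 2 higher and 4 lower to 3 and 3 under quantile normalization and loess. Among all 12 the split of 5 higher and 4 lower became 8 and 4 with equal medians, 9 and 3 with quantile normalization and 8 and 4 with loess, so it follows the scaling.

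No Hox gene had a second probe set, so none had a repeat reading. For 618 measured genes with 2 probe sets, the differences from the 2 lay a median of 0.04 apart, and 0.18 at the 90th percentile. Differences beyond 0.18 were found for 3 of all 37 Hox genes, Hoxa6, Hoxa11 and Hoxb7. Of the 12 measured Hox genes 1 went beyond it, Hoxa6, beside 7.09% of all measured genes. Hoxa11 and Hoxb7 were below the level limit, where no such share was taken. In RefSeq, 10 members overlap another Hox gene, among them Hoxa4, Hoxa5 and Hoxa6 with Hoxa3 and Hoxb4 with Hoxb3. Whether their probe sets could read both transcripts was not tested.

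The Hox5 genes were set beside genes known to depend on them. In lung mesenchyme, loss of Hox5 paralogues is known to lower the Wnt ligands Wnt2 and Wnt2b and the Wnt and BMP genes that follow them. Here Wnt2 differed by -0.31, from 10.35 in wild type to 10.04 in knockout, and Wnt2b at 8.87 and 8.56, a difference of -0.32. The Wnt target Axin2 differed by -0.14, the Wnt effector Lef1 by 0.0017, while Bmp4 had the same value in both pools. Of these 5 genes 3 were lower and 1 higher, with 2 at least 1.2-fold lower and a median of -0.14, beside 47.0% of all measured genes lower and 1.53% at least 1.2-fold lower. Mesenchyme markers, of which Wnt2 is one, were lower in 9 of 9 (median -0.11), and their part in these values was not tested. The Hox5 genes themselves differed by 0.03 (Hoxa5), -0.10 (Hoxb5) and -0.04 (Hoxc5).

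Hox proteins bind DNA together with Meis, Pbx and Pknox proteins. All 8 matched cofactor genes of 9 listed were measured, 3 of them higher and 5 lower, where 25.7% of all measured genes were higher and 47.0% lower. Their median was -0.03, and 0 differed at least 1.2-fold, against 1.39% of measured genes higher and 1.53% lower by that much. With equal medians, quantile normalization or loess 4 of the 8 cofactor genes were higher and 4 lower. Pknox2 had the largest difference, from 8.54 to 8.35 (-0.19), followed by Meis3, from 8.46 to 8.63 (0.17). Meis1 stood at 11.59 and 11.58 and Pbx3 at 11.64 and 11.53, named in addition after their values were seen. Cofactor signal ranged down to Pbx4 at 7.66 and 7.76, just above the array medians.

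Polycomb proteins keep Hox genes silent and trithorax and MLL proteins keep them active. Over all measured genes 25.7% were higher, 47.0% lower and 27.3% equal, and 1.39% and 1.53% were at least 1.2-fold higher and lower. The counts of the 3 lists here are to be read beside these shares. Of 16 measured genes of the Polycomb list 3 were higher, 9 lower and 4 equal, with a median of -0.02. With equal medians 7 were higher and 9 lower, with quantile normalization 9 and 7 (median 0.0045) and with loess 8 and 8. Kdm6a, an X-linked demethylase that removes the Polycomb mark rather than setting it, was the single member past 1.2-fold, at 10.10 and 9.83 (-0.27), and with equal medians, quantile normalization or loess 0 members passed it. Xist differs between the same pools, and its part in this value was not tested. Of 9 measured trithorax and MLL genes 4 were higher, 2 lower and 3 equal, and the largest differences were -0.07 for Wdr5, a core subunit of MLL complexes, and 0.07 for Kat6a, an acetyltransferase. Of 8 measured upstream regulators, which include Cdx factors and retinoic acid genes, 2 were higher, 2 lower and 4 equal, with Cdx1 at 0.13 and the insulator factor Ctcf at -0.09. Neither of these last 2 lists held a gene past 1.2-fold, and both had medians of 0.00. With equal medians, quantile normalization or loess the trithorax and MLL genes were 7 higher and 2 lower and the upstream regulators 6 and 2.

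Homeobox genes outside the clusters served as the nearest comparison. Of 71 listed, 65 were matched and 29 measured, beside 12 of 37 Hox genes. Of the 29, 13 were higher, 7 lower and 9 equal, where 25.7% of all measured genes were higher, 47.0% lower and 27.3% equal. Their median was 0.00, and 0 of 29 passed 1.2-fold, against 1.39% of measured genes higher and 1.53% lower by that much. With equal medians or quantile normalization 22 of the 29 were higher and 7 lower, and with loess 21 and 8. Zfhx4 and the mesenchymal gene Meox2 had the largest differences, -0.26 and -0.23. They ranged from -0.26 to 0.22, and those of measured Hox genes from -0.15 to 0.22.

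**Figure D3:**
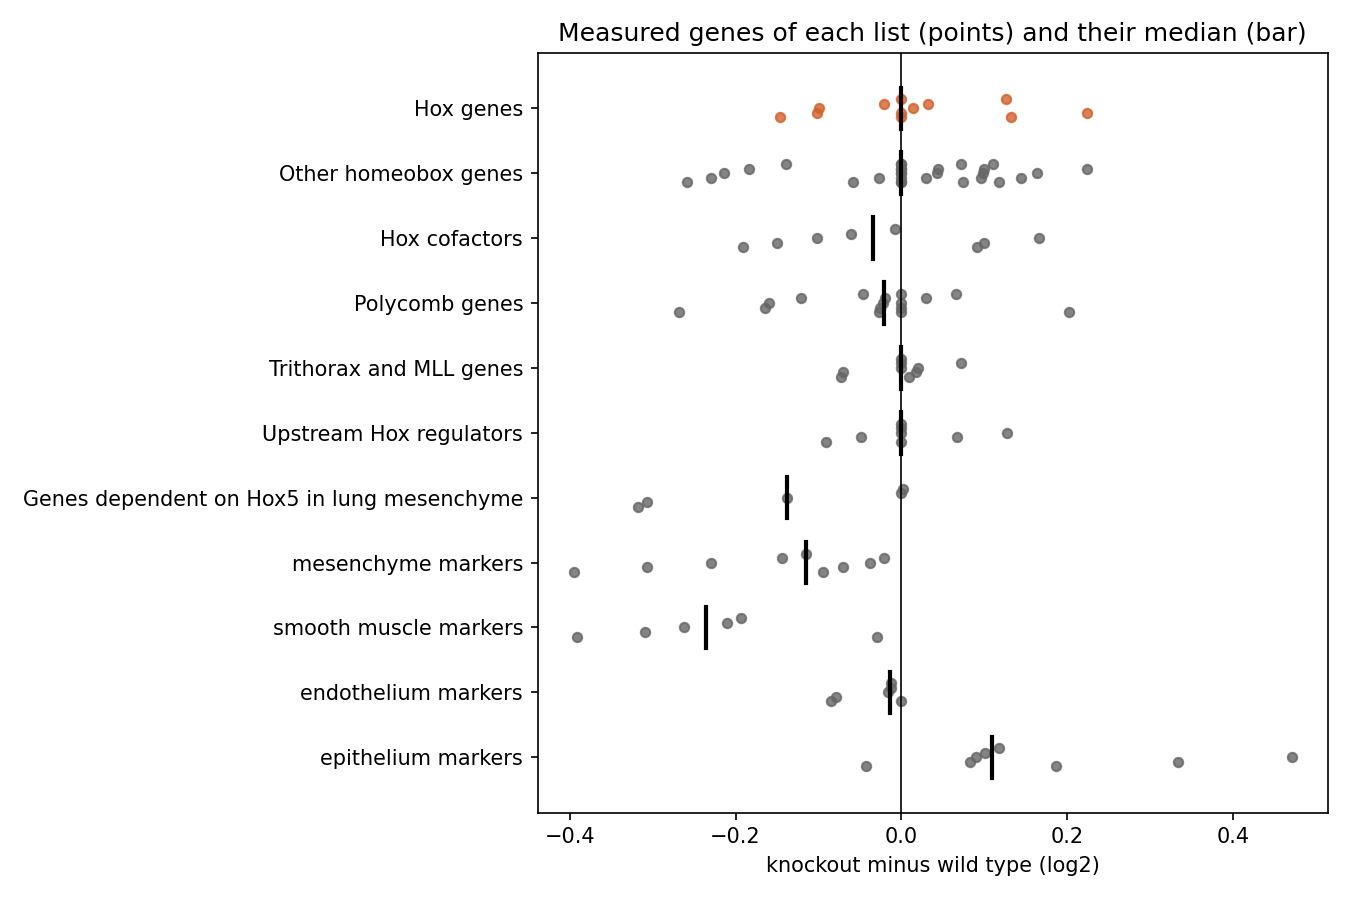
Difference (knockout minus wild type, log2) of each measured gene (points) in 11 lists, with the median as a bar. Hox genes centre on 0.00, mesenchyme markers lie below 0 throughout, and epithelium markers lie above it except Foxa1.

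Cell type markers differed between the pools in both directions, while the measured Hox genes had a median of 0.00. Of 9 measured mesenchyme markers 0 were higher and 9 lower, with differences from -0.40 to -0.02 and a median of -0.11, led by Foxf1, where 25.7% of all measured genes were higher and 47.0% lower. Meox2 also stands on the list of other homeobox genes. Twist1 was below the limit. All 6 smooth muscle markers were lower (median -0.24, Myocd at -0.39), and 7 of 8 epithelium markers were higher (median 0.11, Krt18 at 0.47). Of 6 endothelium markers 5 were lower, by at most 0.08 (Pecam1). The counts for mesenchyme, smooth muscle and epithelium were the same with equal medians, quantile normalization and loess, while endothelium markers went to 4 higher and 2 lower with equal medians and 3 and 3 with the other two. Fewer cells of a type and less RNA per cell cannot be told apart in pooled tissue. The part of these shifts in the Hox values was not tested.

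Markers of other cells and neighbouring tissues differed in signal. Of 6 skeletal muscle markers 0 were measured. They ran from Myh3 at 5.36 and 5.37 to Pax7 at 7.26 and 7.27, with Myod1 at 6.76 and 6.79. Myog had the largest difference among them, from 6.41 to 6.73 (0.32). Of 6 spinal cord markers 1 was measured (Sox1, at 7.97 and 8.07). The others ran from the motor neuron factor Mnx1 at 4.83 and 4.91 to Nkx6-1 at 7.14 on both arrays. These unmeasured markers are named in addition, after their values were seen. Of 8 neural crest and nerve markers 6 were matched and 3 measured: Erbb3 at 9.68 on both arrays, Stmn2 at 8.49 and 8.28 (-0.20) and Ret at 8.21 and 8.35. Of 6 markers of neighbouring foregut and liver 1 was measured, Barx1, equal on both arrays at 7.77. Of 4 matched erythroid markers 2 were measured, Slc4a1 at 8.83 and 8.57 (-0.26) and Alas2 at 8.82 and 8.80. The part of these markers' tissues in the Hox values was not tested.

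RefSeq places 32 further transcripts within the clusters, of which 10 had a probe set and 3 were measured. Hoxaas2, a long noncoding RNA at Hoxa3, stood at 8.43 and 8.57 (0.14), and 5730596B20Rik, another noncoding RNA of the Hoxa cluster, at 9.26 and 9.16 (-0.09). Both lie in the part of the cluster where the coding genes were above the median. Haglr, a noncoding RNA of the Hoxd cluster, stood at 5.50 and 5.56 (0.06). Hoxd3os1, named after its values were seen, had 2 probe sets, 1 equal on both arrays at 6.46 and the other at 6.07 and 5.73 (-0.34), so its probe sets disagreed.

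The clusters also hold the miR-196 and miR-10 genes, which are known to act on Hox transcripts. Their mature 5p sequences from RefSeq (GRCm38.p6) are shown with the seed, bases 2 to 8, in capitals, since each family shares 1 seed across clusters. The pair miR-196a and miR-196b differ by A12C, and the pair miR-10a and miR-10b by U12A, with positions counted from the 5′ end and the first-named miRNA's base first.
miR-196a-5p: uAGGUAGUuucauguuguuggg
miR-196b-5p: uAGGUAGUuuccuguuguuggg
miR-10a-5p: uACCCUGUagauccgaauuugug
miR-10b-5p: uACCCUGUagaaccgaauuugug

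All of the miR-196 and miR-10 genes with a probe set lay below the array median. Mir196a-2, in the Hoxc cluster, stood at 4.83 in wild type and 5.12 in knockout (0.29), and Mir196a-1, in the Hoxb cluster, at 4.50 and 4.33 (-0.16), so the genes for the same mature miR-196a differed in opposite directions at dim levels. Mir196b, in the Hoxa cluster, stood at 6.13 and 6.10 (-0.03). Named after their values were seen, Mir10a stood at 5.05 and 5.03, Mir10b at 3.81 on both arrays, and Mir615, in Hoxc5, at 7.77 and 7.76, the only one of the 6 that was measured. Which form of these RNAs the probe sets read is not given in the sources used here.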

How the data were processed

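Embryonic mouse lung RNA was prepared with a column kit and biotin labelled for Affymetrix arrays, per the labels' protocols. For each array the authors deposited 1 value for each of 35557 probe sets, read here as log2 from its range; log base, summary method and normalization are not given in the sources used here. Of the probe sets, 21789 had 1 gene symbol in the platform annotation, 1621 several and 12147 none. Per gene the probe set with the highest mean was used, without further scaling, floor or offset. Promoter and miRNA sequences and gene order came from RefSeq tables of GRCm38.p6. With 1 array per group no test was run; counts by direction and at 1.2-fold are given beside those of all genes. Every Hox gene is named, and of each of 15 gene lists the measured members past 1.2-fold (pathways) or 1.5-fold (markers), otherwise the largest differences. The members and lists were chosen with earlier results of these data known. Alternatives were equal medians, quantile normalization, loess (span 0.3), the probe set mean, limits at the 25th or 75th percentile or none, a floor, and 1.5-fold and 2-fold limits. The steps were tested on simulated data. Tools were Python 3.11.15, pandas 2.3.3, numpy 2.4.6, matplotlib 3.10.9 and statsmodels 0.14.6.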

Additional observations from a re-analysis of the deposited data

How the results depend on the processing

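No paired analysis was possible because each group has a single array, and for the same reason none was left out. The median difference of measured Hox genes lay between -0.0105 (limit at the 75th percentile) and 0.0194 (quantile normalization). The count of 5 higher members was 8 with equal medians, 9 with quantile normalization, 8 with loess, 12 with the limit at the 25th percentile, 3 at the 75th and 18 with no limit, and the 4 lower members were 7 and 10 with the limit at the 25th percentile and none. More or fewer genes are tested under another limit, and genes with equal values take a sign under another scaling. Measured members numbered 26 with the limit at the 25th percentile, beside 15806 of all 19938 genes. That limit took in all 9 Hoxb genes and 11 Hoxc and Hoxd genes, so the restriction to Hoxa and Hoxb was lost. No measured member passed 1.2-fold, 1.5-fold or 2-fold under any setting that was run. Over all 37 genes, Hoxa11 passed 1.2-fold with equal medians (0.27). With the floor, 4 dim genes (Hoxa9, Hoxa10, Hoxa11 and Hoxc6) moved beyond the median probe set gap of 0.04. Dim signals limit the 25 genes below the array median.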
